A study of Mus musculus with 32 samples.

Results

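The haemoglobin genes and Alas2 were followed over 32 Illumina MouseRef-8 v2.0 arrays, each hybridized with labelled cRNA from the frontal cortex (FCtx) of 1 mouse. Members are all probes whose gene symbol begins with Hba- or Hbb-, together with Alas2, chosen by name. No measured value enters this rule, but earlier results of these data were known when it was set. They are 8 probes of 7 genes, of 25697 probes on the array. All mice were female F1 animals from C57BL/6J and FVB/NJ parents. The 20 ethanol-treated mice chose between water and 20% ethanol in limited-access sessions of 3 h in the dark over 20 days, and the 12 controls had water alone. The labels name 1 direction of the cross, whereas the Methods name reciprocal crosses, and the intake of each mouse was not used here. Mice were killed by cervical dislocation and the brains snap frozen, with no perfusion described. The Methods place tissue collection 20 h after the last session while the Discussion gives 24 h. A chip takes 8 arrays in positions lettered A to H, of which A, C, E and G are called odd here and the others even. Ethanol-treated mice filled chips 1 and 2, and controls filled chip 4. Only chip 3 was mixed, with ethanol-treated mice at its 4 odd positions and controls at its 4 even ones.

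Haemoglobin is the oxygen carrier of red cells, a tetramer of alpha-like and beta-like chains that each hold a haem group. Alas2 is the erythroid form of the enzyme that starts haem synthesis. Adult mice make the chains of Hba-a1 and its near-identical copy Hba-a2 together with adult beta chains, whereas Hba-x, Hbb-bh1 and Hbb-y belong to embryonic red cells. Globin and Alas2 mRNA persist in reticulocytes, the youngest red cells in blood, so that these transcripts enter a brain sample with the blood left in its vessels, and low globin expression has also been described in some neurons and glia. In a whole-tissue sample, fewer cells of a type and less RNA per cell cannot be told apart.

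The probes decide what is read. The Hba-a1 probe is shown whole, because the correlations below are taken against its signal. It starts at base 175 of the transcript, within the coding region. Signal from Hba-a2 transcripts could not be separated from it with the sequences used here.

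Hba-a1 probe: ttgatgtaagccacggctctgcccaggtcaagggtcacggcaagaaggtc

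The probes named Hbb-b1 and Hbb-b2 are shown in part, because they differ by so little that each may bind the other's transcript. Over the 49 positions at which they overlap, 48 bases are identical. The single difference, T22G, is counted from 1 at the 5′ end of the Hbb-b1 probe and stands in capitals in the 29 bases around it.

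Hbb-b1 probe, middle: agaaaaactgtcaaTtgtggggaaatgat
Hbb-b2 probe, middle: agaaaaactgtcaaGtgtggggaaatgat

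Whether the probes bind each other's transcripts was not tested. The 2 probes of Hbb-y overlap by 33 bases, all identical. Of the 7 member genes, 4 have an entry under the same symbol in the RefSeq promoter table (GRCm38.p6): Hba-a1, Hba-x, Hbb-y and Alas2. Hbb-b1, Hbb-b2 and Hbb-bh1 have none, and the adult beta genes of that table are named Hbb-bs and Hbb-bt. The 120 bases before the start of Hba-a1 and Alas2 are shown because the signals of these members moved together. The windows of Hbb-bs and Hbb-bt are shown as the adult beta genes of that table. They were not matched to the probes named Hbb-b1 and Hbb-b2, so no signal is given for them here. Hba-a1 lies on chromosome 11 (chr11:32283552-32283671, plus strand), Hbb-bs (chr7:103827929-103828048) and Hbb-bt (chr7:103813924-103814043) on the minus strand of chromosome 7, and Alas2 on the X chromosome (chrX:150547297-150547416, plus strand). Capitals mark CACCC and GATAA as well as CCAAT and TATAA on either strand, and adjoining capitals are motifs that touch or overlap.

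Hba-a1: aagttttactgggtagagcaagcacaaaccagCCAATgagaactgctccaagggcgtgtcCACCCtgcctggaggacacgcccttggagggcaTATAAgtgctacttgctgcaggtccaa
Hbb-bs: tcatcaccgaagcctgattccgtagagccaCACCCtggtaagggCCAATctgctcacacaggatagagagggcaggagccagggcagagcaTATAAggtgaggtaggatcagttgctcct
Hbb-bt: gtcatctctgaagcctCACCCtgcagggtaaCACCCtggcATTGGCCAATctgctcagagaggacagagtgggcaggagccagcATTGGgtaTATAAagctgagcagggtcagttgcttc
Alas2: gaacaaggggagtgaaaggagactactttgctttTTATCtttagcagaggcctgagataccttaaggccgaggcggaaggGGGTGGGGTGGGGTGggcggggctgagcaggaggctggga

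CACCC, the core of the element that erythroid Krüppel-like factors bind, was present in all 4 windows, against 31.7% of the 32851 promoter windows of the same length. CCAAT and TATAA were in the 3 globin windows and not in that of Alas2 (21.3% and 11.8% of all windows). GATAA, the core bound by GATA factors, was found in the Alas2 window and in none of the other 3 shown (10.5% of all windows). A match describes these letters and is not a measured binding site.

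Each array gave 4 values per probe, among them a mean signal over beads and a detection p-value against negative control beads, below 0.01 here for a detected probe. Between 9480 and 11544 probes were detected per array, and the median signal per array ranged from 146.2 to 203.3. The control C66 (chip 4, position H) stood apart with the 9480 probes and the lowest median signal, the other arrays detecting 10637 or more. Its place among the arrays depended on the scaling. Hba-a1 on C66 was the 31st highest of 32 arrays in the signal as deposited, 4th after quantile normalization and 26th after scaling each array to its median, so results are given with and without this mouse where it matters. Mice are the replicates, and no mouse was measured on more than 1 array.

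Hba-a1, the adult alpha chain, was detected on all 32 arrays. Its signal ranged from 5744 to 16812 over the arrays, with a median of 9368, a 2.93-fold range. In ethanol-treated mice the lowest, median and highest signals were 5744, 9750 and 16812, and in controls 6894, 9161 and 15309. The 2 groups overlapped over nearly the whole range. The error over beads was small beside this, with a median standard error of 4.34% of the signal over the 32 arrays against a coefficient of variation of 27.2% between arrays.

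After a variance-stabilizing transform and quantile normalization, on a log2 scale used from here on, Hba-a1 averaged 13.09 ± 0.35 (SD, n = 20) after ethanol and 13.16 ± 0.32 (SD, n = 12) without it. Its lowest value was 12.23, in the ethanol-treated mouse A28 (chip 2, position A). The highest were 13.80 in the ethanol-treated mouse A39 and 13.69 in A20, then 13.67 in the control C52 and 13.60 in the control C66. With median scaling the highest were A39, A20 and C52 as before, followed by the control C59 of chip 4 at 13.49, with C66 lower. The high arrays under either scaling came from both treatments and from all 4 chips. By position, A39, A20, C52 and C66 all sat at even places of their chips, and C59 at an odd one.

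**Figure D1:**
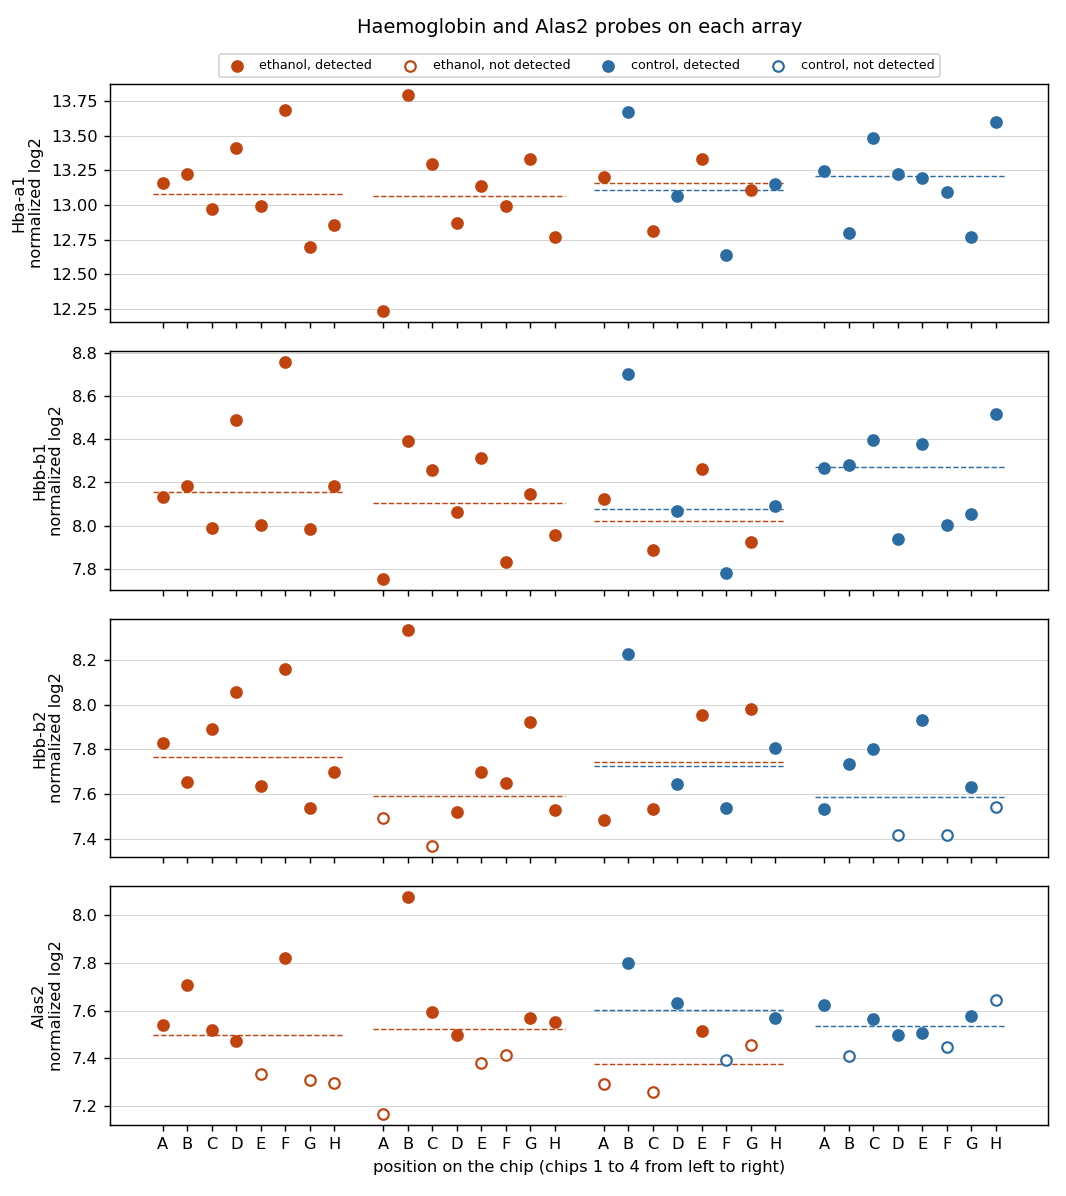
Normalized log2 values of Hba-a1, Hbb-b1, Hbb-b2 and Alas2 (y axis, 1 panel each with its own scale) on the 32 arrays, ordered by chip and position. Filled points are arrays on which the probe was detected (p below 0.01), open points those on which it was not, and dashed lines are medians per chip and treatment. A20 (chip 1, position F), A39 (chip 2, position B) and C52 (chip 3, position B) are among the 6 highest in all 4 panels, and A28 (chip 2, position A) is the lowest for Hba-a1, Hbb-b1 and Alas2.

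The adult beta chain was read by 2 probes. Hbb-b1 was detected on all 32 arrays, with signals from 213 to 507 and a median of 290. Its normalized values were 8.13 ± 0.24 (SD, n = 20) in ethanol-treated mice, from 7.75 in A28 through a median of 8.13 to 8.76 in A20, and 8.21 ± 0.26 (SD, n = 12) in controls, from 7.78 in C55 through 8.18 to 8.70 in C52. Hbb-b2 was detected on 27 arrays, with signals from 154 to 342. Its average was 7.75 ± 0.26 (SD, n = 20) after ethanol and 7.69 ± 0.23 (SD, n = 12) without it, lowest in A29 at 7.37 and highest in A39 at 8.34. The groups overlapped for both probes. Since probes differ in how strongly they bind, these levels say nothing of the ratio of beta to alpha chains.

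Alas2 was close to the detection limit. It was detected on 19 arrays, 11 of 20 in ethanol-treated mice and 8 of 12 in controls, so that it did not reach the 24 arrays needed to be tested. Its signal ranged from 158 to 289 with a median of 192. The normalized value averaged 7.49 ± 0.21 (SD, n = 20) after ethanol and 7.56 ± 0.11 (SD, n = 12) without it, from 7.17 in A28 to 8.07 in A39. On the 13 arrays without detection it is known only as a value not above background.

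The embryonic genes gave no detected signal. Hba-x, Hbb-bh1 and both probes of Hbb-y were detected on 0 of 32 arrays, with signals between 123 and 187. Their normalized values spread over 0.27 to 0.44 on the log2 scale from the lowest to the highest array, against 1.57 for Hba-a1. They show what a globin probe at background looks like on these arrays. The promoter windows of Hba-x and Hbb-y, not shown above, each held CACCC too, and the window of Hba-x also held GATAA. Presence of CACCC thus did not set the windows shown apart from those of these undetected embryonic genes.

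The adult members varied more between mice than most probes did. The SD between mice within a treatment was 0.34 for Hba-a1, 0.25 for Hbb-b1 and 0.25 for Hbb-b2, against a median of 0.13 over the 10187 tested probes. Of these probes, 99.6% had a smaller SD than Hba-a1, 97.0% than Hbb-b1 and 97.2% than Hbb-b2. Alas2, although not tested, had an SD of 0.18, above that of 85.9% of tested probes. The embryonic probes lay between 0.075 and 0.098. Treatment accounted for 0.954% of the variance of Hba-a1, chip for 1.69% and odd or even position for 3.16%, each below the medians over tested probes of 5.86%, 18.8% and 5.86%. The spread of Hba-a1 was therefore almost all within groups, chips and kinds of position. For Hbb-b1 and Hbb-b2 the shares of treatment, chip and position were below these medians too, with 3.05% and 0.804% for position. Alas2 differed in 1 of these shares. Odd or even position accounted for 12.6% of its variance, above the median of 5.86%, while its shares for treatment and chip were below the medians.

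**Figure D2:**
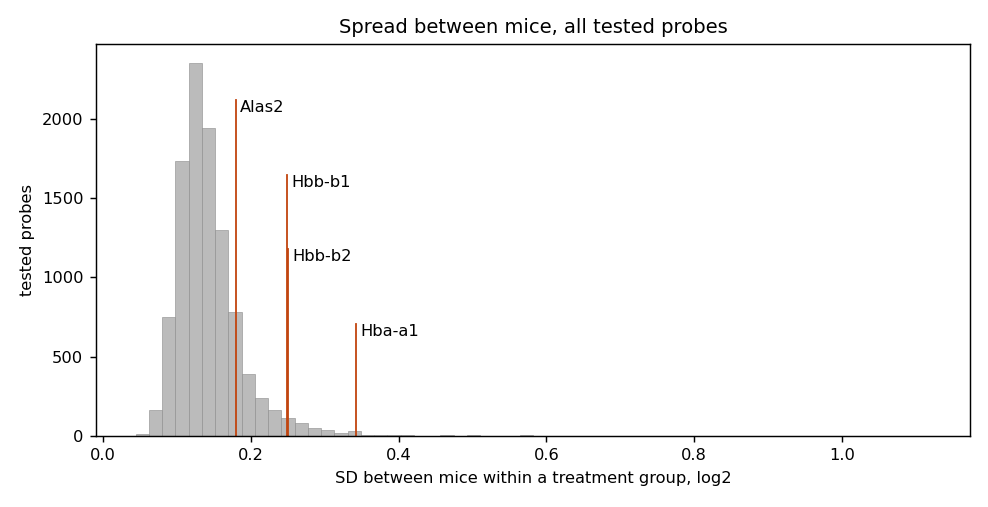
Number of tested probes (y axis) by the SD between mice within a treatment group on the log2 scale (x axis), for all 10187 tested probes. Lines mark the adult haemoglobin probes and Alas2, which was not itself tested. Hba-a1, at 0.34, lies above 99.6% of the tested probes.

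Whether haemoglobin signal was higher or lower in ethanol-treated mice was asked by comparing the tested members between treatments over all 32 arrays. None of the 3 tested members was called at an FDR below 1% in limma with Benjamini-Hochberg adjustment over all tested probes. Of all 10187 tested probes 8.18% were called (833 probes, 3.66% higher and 4.52% lower). No tested member had an unadjusted p below 0.05 in limma. The share of all probes below that level is not given for this and the next comparisons. Hba-a1 differed by -0.07 (ethanol minus control, SE 0.11, limma adjusted p = 0.721), and its 95% confidence interval ran from -0.29 to 0.16. Hbb-b1 differed by -0.07 (interval -0.24 to 0.09, adjusted p = 0.571) and Hbb-b2 by 0.06 (interval -0.11 to 0.23, adjusted p = 0.653). The ranges of the treatments overlapped for all 3. Without the control C66 the difference of Hba-a1 was -0.03, and with chip and odd or even position in the model it was 0.13 with an SE of 0.25, on the other side of 0. Hbb-b2 also changed side, to -0.07 with chip in the model and -0.03 with chip and odd or even position. When all 25697 probes were tested, Alas2 differed by -0.07 (SE 0.061, adjusted p = 0.632), although it was detected on only 19 arrays.

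Chip 3 alone held both treatments, which there coincided with odd and even positions and cannot be told apart from them. Hba-a1 on this chip was 13.20, 12.81, 13.33 and 13.11 in the ethanol-treated mice A46, A47, A49 and A50. In the controls C52, C54, C55 and C56 it was 13.67, 13.07, 12.64 and 13.15. The 2 extremes of the chip were both controls, and the ethanol-treated mice lay between them. In limma, 0 of 3 tested members were called, against 2.89% of tested probes, and none of the 3 had an unadjusted p below 0.05. The differences were -0.02 for Hba-a1 (interval -0.34 to 0.30, adjusted p = 0.954), -0.11 for Hbb-b1 and -0.07 for Hbb-b2. Direction rested on single mice: without C52 the difference of Hba-a1 was 0.16, and without A47 it was 0.08.

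Position and chip were examined where treatment did not vary. On chips 1, 2 and 4, Hba-a1 was 13.19 ± 0.36 (SD, n = 12) at even and 13.04 ± 0.34 (SD, n = 12) at odd positions, a difference of 0.15 (SE 0.13, limma adjusted p = 0.453). Hbb-b1 differed by 0.08 and Hbb-b2 by 0.04. Of the members 0 of 3 were called, against 2.86% of tested probes, and none had an unadjusted p below 0.05 in limma. The difference between even and odd positions on the control chip, set against that on the ethanol chips, was -0.22 for Hba-a1 (SE 0.27, limma adjusted p = 0.940). Between chips 2 and 1, both of ethanol-treated mice, the differences were -0.07, -0.13 and -0.12 for Hba-a1, Hbb-b1 and Hbb-b2. Of these 0 of 3 were called, against 0.00982% of tested probes, and none had an unadjusted p below 0.05 in limma. Between controls at even positions of chips 4 and 3 the differences were 0.04, 0.03 and -0.28. Hbb-b2 had an unadjusted p of 0.0388 there (limma adjusted p = 0.20), and 0 of 3 were called, against 0.736% of tested probes.

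**Figure D3:**
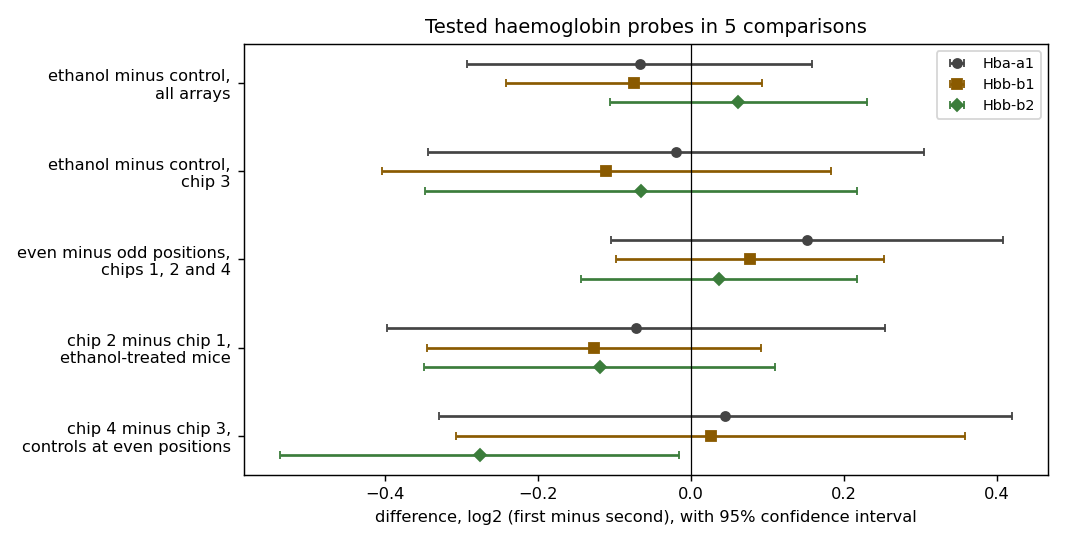
Differences on the log2 scale (x axis, first group minus second) with 95% confidence intervals for the 3 tested haemoglobin probes in 5 comparisons (y axis). The intervals hold 0 in every comparison except for Hbb-b2 between chips 4 and 3, which ran from -0.54 to -0.02 and was not called after adjustment.

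The spread itself was compared between treatments as well. The mean absolute deviation of Hba-a1 from the group median was 0.26 in ethanol-treated mice and 0.24 in controls, and this difference was within what a two-sided permutation test over mice gave (p = 0.786, 100000 resamples).

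Although no member was called between groups, the adult members rose and fell together from mouse to mouse. The arrays ranked 1st to 3rd for Hba-a1 (A39, A20 and C52) were also 1st to 3rd for Alas2, and 1st, 3rd and 2nd for Hbb-b2. Of the 5 arrays highest for Hba-a1, 4 were among the 5 highest for Hbb-b1, 4 for Alas2 and 3 for Hbb-b2. With median scaling, where C66 was not among the 5, these numbers were again 4, 4 and 3, and without C66 they were 5, 3 and 4. Over 32 arrays Hba-a1 correlated with Hbb-b1 at Pearson r = 0.801 (Spearman rho = 0.767) and with Alas2 at r = 0.762 (rho = 0.647), both with a two-sided permutation p of 1e-05 for r, the smallest that 100000 resamples give. With Hbb-b2 the values were r = 0.594 (permutation p = 0.00038) and rho = 0.463 (permutation p = 0.00845). Benjamini-Hochberg adjusted p-values over the 7 relations with other members were 3.5e-05, 3.5e-05 and 0.000887. Alas2 was detected on 19 of the 32 arrays, and its values on the others, not above background, enter its correlations too. Without the 2 arrays farthest from the median of Hba-a1, A28 and A39, r was 0.79 for Hbb-b1, 0.658 for Alas2 and 0.503 for Hbb-b2. The embryonic probes, at background, had r from -0.28 to 0.24 with Hba-a1, and 0 of 4 passed an adjusted permutation p of 0.05.

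Within single chips of 8 arrays not every relation passed the test. For Hbb-b1, r with Hba-a1 was 0.895 on chip 1, 0.855 on chip 2, 0.945 on chip 3 and 0.550 on chip 4, the last not passing an exact permutation test (adjusted p = 0.369, n = 8). For Alas2 the values were 0.827, 0.864, 0.695 and 0.561, of which those on chips 3 and 4 did not pass (exact permutation, adjusted p = 0.126 and 0.369). For Hbb-b2 they were 0.848, 0.709, 0.785 and -0.05, and only chip 1 passed the adjusted test. Chip 4 held only controls, with the array of C66 among them. Without C66 the values on chip 4 were 0.333 for Hbb-b1, 0.365 for Alas2 and 0.071 for Hbb-b2, so that the members are not shown to covary on this chip. A background probe reached a higher r there. The first Hbb-y probe, never detected, had r = 0.755 on chip 4 (exact permutation, adjusted p = 0.222) and 0.646 without C66. Within ethanol-treated mice r was 0.817 for Hbb-b1, 0.793 for Alas2 and 0.714 for Hbb-b2 (n = 20). Within controls, with C66 kept, it was 0.776, 0.728 and 0.403 (n = 12), the last not passing a permutation test (adjusted p = 0.456). Values within controls without C66 were not computed. The undetected Hba-x had r = -0.470 within ethanol-treated mice (permutation test, adjusted p = 0.0653) and 0.307 within controls. A difference between the treatments in these correlations was not tested.

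**Figure D4:**
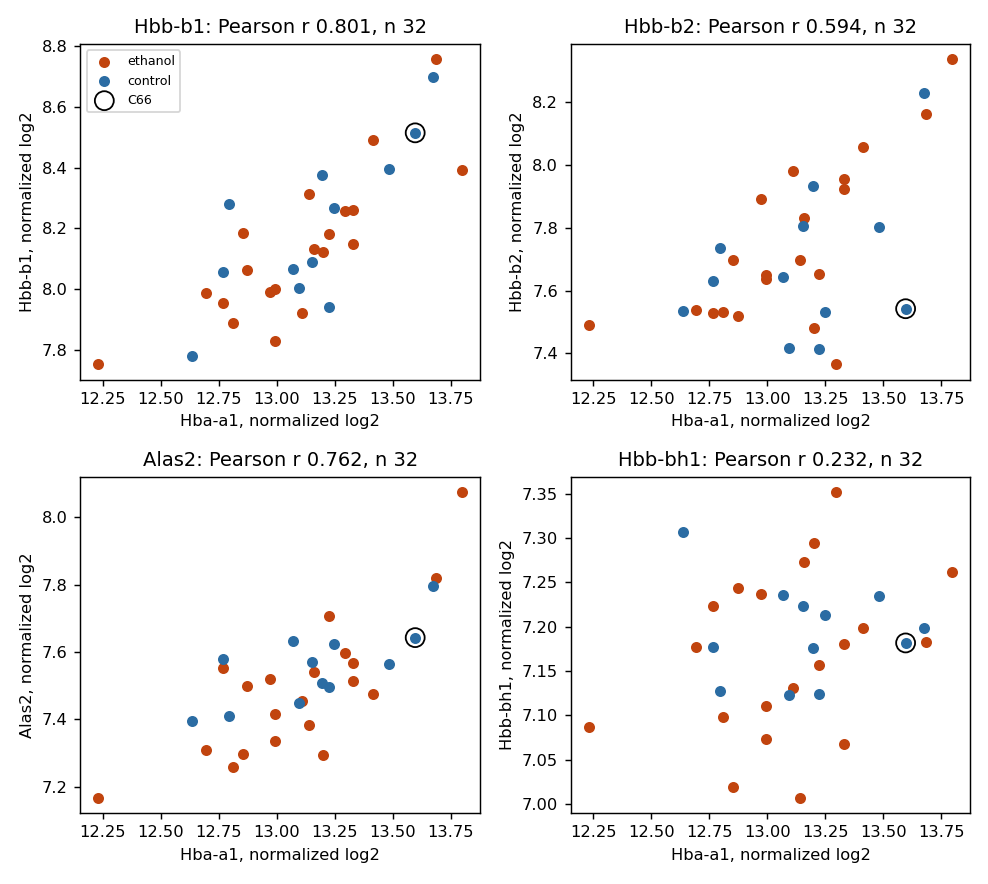
Hbb-b1, Hbb-b2, Alas2 and the embryonic Hbb-bh1 (y axes) against Hba-a1 (x axes), as normalized log2 values of the 32 arrays, coloured by treatment. Pearson r is 0.801, 0.594, 0.762 and 0.232, and the ring marks the control C66.

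In a model with treatment, chip and odd or even position, Hbb-b1 changed by 0.58 (SE 0.079, 95% interval 0.42 to 0.74) and Hbb-b2 by 0.46 (SE 0.10, interval 0.25 to 0.66) for each unit of Hba-a1. Slopes depended on the background correction. After normexp correction the slopes without covariates were 0.79 for Hbb-b1, 0.68 for Hbb-b2 and 0.81 for Alas2, against 0.59, 0.44 and 0.41 without it. In the model with covariates Mtap1b, not a member, had a steeper slope of 0.84 (SE 0.19, limma adjusted p = 0.084). By correlation, no probe outside the members followed Hba-a1 as closely as Hbb-b1 did. After centring within sets of the same treatment, chip and kind of position, r with Hba-a1 was 0.817 for Hbb-b1, whereas the 10184 probes that are not members ranged from -0.73 to 0.72 with a median of -0.02.

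The same model gave, over those 10184 probes, 0 that followed Hba-a1 at the 1% threshold (0%) and 15 when an FDR of 10% was allowed (0.147%), with 1180 at an unadjusted p below 0.05 (limma). The genes most like Hba-a1 after centring were 2310046K01Rik (r = 0.721), the zinc finger genes Zfp187 (0.669) and Zfp12 (0.658), Mycbp2, a large ubiquitin ligase of axons (0.657), and Fcgr3, an immunoglobulin receptor of myeloid cells (0.647). After them came Ipmk, an inositol phosphate kinase (0.640), Fbf1 (0.632), Kcnf1, a potassium channel subunit (0.630), Tmem2 (0.626) and Ptplad1 (0.622). The least like were Mtpn (-0.695), Rchy1 (-0.683), Rap1gap (-0.677), Adam23 (-0.675) and Fez1 (-0.672). None of them reached the r of Hbb-b1, whereas 8 probes that are not members exceeded the 0.631 of Hbb-b2.

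Other genes of the red cell were mostly not detected. Of 17 red cell membrane and cytosol genes on the array, 5 could be tested (Prdx2, Epb4.9, Spnb1, Ank1 and Aqp1), all of them also expressed outside red cells. Slc4a1, the anion exchanger of red cells, was detected on 1 array. Of 14 erythroid regulators and maturation genes, 6 were tested, and the transcription factors Gata1, Klf1, Tal1, Nfe2 and Gfi1b were detected on 0 arrays. Eraf, which stabilizes free alpha chains and is abundant in reticulocytes, was detected on 1 array. Spna1, the red cell alpha spectrin, was detected on 8 arrays, and Epor, the erythropoietin receptor, on 23, just under the 24 needed. The defining red cell transcripts other than the adult globins and Alas2 were thus detected on few or no arrays, Epor excepted.

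The 5 tested red cell genes were less like Hba-a1 than the beta globin probes were. Among them centred r with Hba-a1 had a median of 0.08 and reached 0.46 for Spnb1, the red cell beta spectrin. Their differences between treatments had a median of 0.01, against -0.0037 over all tested probes, and 0 of 5 were called at an FDR below 1%. Prdx2, a peroxide scavenger of red cells and neurons, was 12.78 on average and differed by -0.05 (limma adjusted p = 0.418). Ank1, an ankyrin, differed by 0.15 (limma adjusted p = 0.0218). Among the erythroid regulators, median r was -0.08. Tfrc, the transferrin receptor, differed by 0.01 over all arrays (limma adjusted p = 0.971) and by -0.46 on chip 3 (adjusted p = 0.00220), while Hba-a1 on that chip differed by -0.02. Bnip3l, which clears mitochondria from maturing red cells, had r = -0.26 with Hba-a1, and the mitochondrial carrier Slc25a39 had 0.23. Of the 6 regulators 1 was called, Tspan33, lower in ethanol-treated mice (difference -0.22, limma adjusted p = 0.00117), against 4.52% of all tested probes called lower. It was named after its value was seen. On chip 3 it differed by -0.33 (adjusted p = 0.0105), not called there.

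Of 8 haem synthesis genes other than Alas2 on the array, 6 were tested, with 0 called, a median difference of -0.02 and a median centred r with Hba-a1 of -0.14. Alas1, the form of the first enzyme that all tissues use, differed by -0.01 (limma adjusted p = 0.821) and had r = -0.23. Alad, the second enzyme of the pathway, had r = 0.33, Uros had -0.02 and Urod -0.07. Of 11 genes that take up haemoglobin or break down haem, 6 were tested and 0 called, and their r with Hba-a1 ran from -0.35 to 0.28. Fth1, a ferritin chain that stores iron, had r = -0.35, Hmox2, the constitutive haem oxygenase, -0.02, and the biliverdin reductases Blvra and Blvrb -0.09 and -0.35. The plasma scavengers Hp and Hpx, the inducible Hmox1 and Cd163, the haemoglobin receptor of macrophages, were not tested because they were detected on fewer than 24 arrays.

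**Figure D5:**
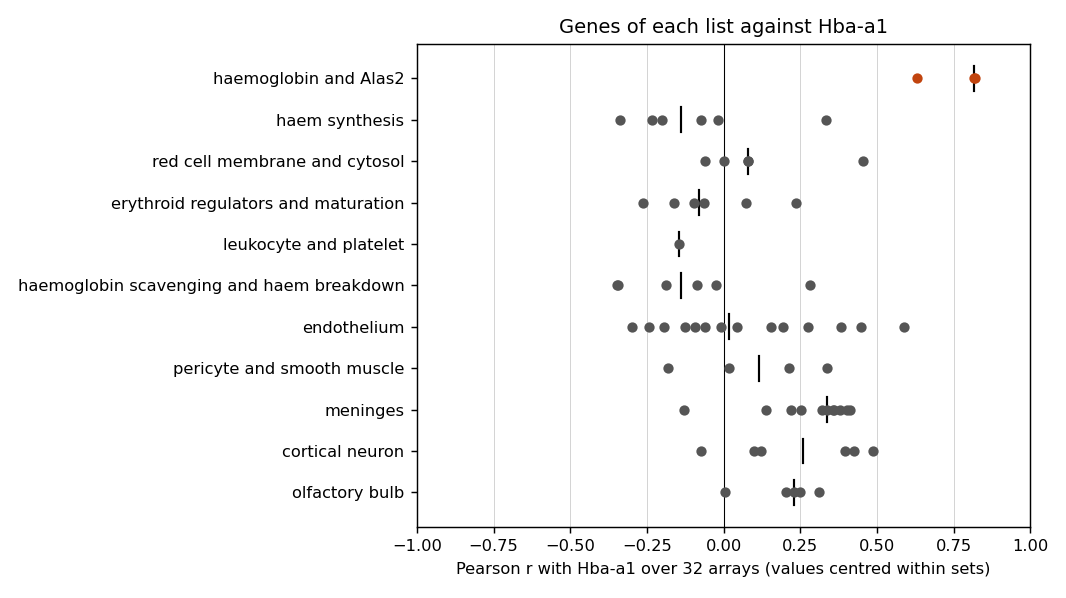
Pearson r with Hba-a1 over 32 arrays (x axis), after values were centred within each set of one treatment, chip and kind of position, for every tested gene of each list (points) and the list's median (bar); in the top line Hbb-b2 is at 0.63 and Hbb-b1 and Alas2 coincide at 0.82. No gene of the other lists lies above 0.59.

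Other components of blood and of vessels were looked at beside the haemoglobin genes. Of 17 leukocyte and platelet genes only Gp1bb was tested, with r = -0.15, while the neutrophil genes S100a8 and S100a9 and the leukocyte marker Ptprc were not. Of 18 endothelial genes 14 were tested. Their median r was 0.02 and their range -0.30 to 0.59, with 0.27 for Slc2a1, the glucose transporter of the blood-brain barrier, -0.24 for Egfl7, 0.19 for Ly6a and 0.16 for Ly6c1. Slc2a1 was called lower in ethanol-treated mice (difference -0.24, limma adjusted p = 0.000404), as was Eng, an endothelial receptor named after its value was seen (-0.19, adjusted p = 0.00373), and 0 of the 14 were called higher, against 4.52% of all tested probes called lower and 3.66% higher. On chip 3 neither was called, with -0.16 for Slc2a1 (adjusted p = 0.194) and -0.19 for Eng (adjusted p = 0.165). Of 4 tested genes of pericytes and smooth muscle 1 was called, Rgs5, higher by 0.39 (limma adjusted p = 0.000185), against 3.66% of all tested probes called higher. Its r with Hba-a1 was 0.21. On chip 3 Rgs5 differed by 0.083 and was not called (adjusted p = 0.660). No other chip held both treatments, and the 833 calls over all arrays became 17 with chip as a block. Acta2, the smooth muscle actin, had r = 0.34, Vtn 0.02 and Cspg4 -0.18.

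Meningeal genes had the highest median r of the lists, 0.34 over 11 tested genes, from -0.13 to 0.41, with 0 called between treatments. Mgp had r = 0.38, Ptgds 0.36, the collagen-binding Dcn 0.36 and the growth factor Igf2 0.34. On chip 3, where ethanol-treated mice sat at odd positions, Igf2 was 0.61 and Dcn 0.54 above the controls (limma adjusted p = 0.0017 and 0.00353), while Ptgds differed by 0.10 (adjusted p = 0.433), Mgp by 0.14 (adjusted p = 0.348) and Hba-a1 by -0.02. Olfactory bulb genes had a median r of 0.23 over 5 tested genes. Calb2, a calcium-binding protein of periglomerular cells, had 0.20, Dlx1 0.23, Doc2g 0.31 and Sp8 0.25. On chip 3 they differed between treatments by 1.25, 0.63, 0.84 and 0.33 (limma adjusted p = 0.00224, 0.00133, 0.00254 and 0.0202), beside the -0.02 of Hba-a1. Over all arrays 0 of the 5 were called, with 0.51 for Calb2 (adjusted p = 0.209) and 0.21 for Dlx1 (adjusted p = 0.348). Of the cortical neuron genes 6 were tested, with a median r of 0.26, Camk2a at 0.43 and Syt1 at 0.40, Slc17a7 at 0.12 and Gad1 at 0.10. Slc17a7, a glutamate transporter of synaptic vesicles, was called lower in ethanol-treated mice (-0.24, limma adjusted p = 0.00484), as was Tbr1, a transcription factor of cortical neurons named after its value was seen (-0.34, adjusted p = 0.000314). These 2 of 6 stand beside 4.52% of all tested probes called lower. Other genes of this list lay on the other side and were not called over all arrays, Gad1 at 0.29 (adjusted p = 0.014) and Syt1 at 0.12 (adjusted p = 0.153). On chip 3 Slc17a7 differed by -0.43 (adjusted p = 0.00214), Tbr1 by -0.52 (adjusted p = 0.00613) and Gad1 by 0.55 (adjusted p = 0.0017). All 7 choroid plexus genes, Ttr among them, were detected on too few arrays to be tested.

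As whole-list scores, these lists and the measures of array quality were set against Hba-a1 in 12 relations. Centred within sets, as the r of single genes above, the scores had r = 0.457 for cortical neuron genes (permutation adjusted p = 0.107). Centred r was 0.373 for meninges and -0.345 for scavenging (permutation adjusted p = 0.168 for each). All other values in this paragraph are without centring. Pearson r ran from -0.23 for haemoglobin scavenging to 0.414 for cortical neuron genes (permutation p = 0.0184, adjusted p = 0.221, rho = 0.374), and 0 of 12 passed an adjusted permutation p of 0.05. With median scaling 0 of 12 passed as well, and 3 of the lists changed sign, scavenging to 0.23, haem synthesis from -0.20 to 0.19 and erythroid regulators from -0.11 to 0.19. The median signal of the array had r = -0.17 and position A to H r = -0.09. The number of detected probes had r = 0.155 (permutation p = 0.394) and rho = 0.365 (permutation p = 0.0414) over 32 arrays. With median scaling r was 0.481 (permutation p = 0.00544, adjusted p = 0.0653), and without C66 the normalized values gave r = 0.507 and rho = 0.465 (permutation p = 0.00368 for r, adjusted p = 0.0442, n = 31). Arrays with more detected probes thus tended to have more Hba-a1 signal once this array was left out, and without A28 and A39 instead, with C66 kept, r was -0.02. The part of array quality in the spread of Hba-a1 was not tested.

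Hba-a1 was also added to the model of the comparison of treatments. Treatment accounted for only 0.954% of its variance, and 0 of 10184 other probes followed it at an FDR below 1%. The count of calls thus had little room to change. With Hba-a1 as a covariate 794 probes were called at an FDR below 1%, against 833 without it, and 779 were called in both. Without the covariate, leaving out 1 mouse gave 561 to 1000 calls, and chip as a fixed block gave 17. The part of blood in the remaining differences was not tested.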

How the data were processed

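Labelled cRNA, prepared from total RNA of the frontal cortex of 32 mice, was hybridized to Illumina MouseRef-8 v2.0 arrays. For each array the authors deposited the mean bead signal (intensity, not normalized), the detection p-value, and other values for each probe, its bead number and the standard error between beads. The labels name lumi and limma for the authors' processing, without versions. Here signals were variance-stabilized with a re-implementation of lumi's transform and quantile-normalized (R 4.3.3), and 10187 of 25697 probes detected at p below 0.01 on at least 24 arrays were tested with limma 3.58.1 and Benjamini-Hochberg adjustment, and called at an FDR below 1%. Correlations used permutation tests (scipy 1.17.1), exact within chips. Alternatives were log2 signals, normexp (offset 16), median scaling, all probes, chip and position terms, and each mouse left out. Correlations within treatments and without C66, and shared highest arrays under median scaling and without C66, were added after seeing the data. Members and lists were chosen with earlier results of these data known. Named list genes are the 4 brightest tested of each list, and genes like Hba-a1 the 10 highest and 5 lowest by centred r. Some listed genes are not reported here. Probes were tested one by one, and scripts were tested on simulated data. The number of arrays limits the precision.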

Additional observations from a re-analysis of the deposited data

Results flagged for a closer look

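In each set of mice of 1 chip and treatment, the highest and lowest array of every member probe were compared with the rest by Dixon's gap test at 95%, over 40 sets, of which 2 held an array far from the others. Chance marks about 1 in 20 such sets. Alas2 in the ethanol-treated mouse A39 of chip 2 was 8.07, with a gap to the next array of 0.528 of the range of that set, and A39 was also the highest of all arrays for Hba-a1 and Hbb-b2. The second Hbb-y probe in the control C60 of chip 4 was 6.99, the lowest of its set, with a gap of 0.734 of the range, and this probe was detected on 0 of 32 arrays.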

How the results depend on the processing

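No paired analysis was possible because the replicate numbers are mouse numbers and no number occurs in both treatments. No member was called between treatments, on chip 3 or between positions under any alternative run. The 833 probes called between treatments became 181 with median scaling, 17 with chip as a fixed block, 70 with chip as a random block and 2 with chip and odd or even position. With the last, Hba-a1 differed by 0.13 and Hbb-b2 by -0.029, and with chip alone Hbb-b2 differed by -0.065. Called probes on chip 3 fell to 21 with normexp, and those between positions to 0 with median scaling. With 1 mouse left out, counts ran from 561 to 1000 between treatments, 73 to 353 on chip 3 and 182 to 434 between positions, and probes that followed Hba-a1 numbered 0 to 5, with 5 without C52 and 1 without C55. Between treatments, Hba-a1 ran from -0.11 to -0.02, Hbb-b1 from -0.11 to -0.03 and Hbb-b2 from 0.03 to 0.11. On chip 3 these were -0.19 to 0.16, -0.24 to 0.070 and -0.15 to 0.077, and between positions 0.08 to 0.20, 0.03 to 0.11 and -0.026 to 0.069.

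Correlations with Hba-a1 that no longer passed were Alas2 on chips 3 (0.695) and 4 (0.561), Hbb-b1 on chip 4 (0.550), and Hbb-b2 on chips 2 (0.709), 3 (0.785) and 4 (-0.048) and in control mice (0.403). On chip 4 without C66 they were 0.365, 0.333 and 0.071 for Alas2, Hbb-b1 and Hbb-b2. Without C66, 1 of 12 array measures and lists passed in place of 0. The cause of these changes was not tested.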
